A study of Mus musculus with 14 samples.

Results

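The genes described here encode 10 antioxidant enzymes and carriers of the mouse, out of 20242 genes with a symbol in the deposited tables: the superoxide dismutases Sod1 and Sod2, catalase (Cat), the glutathione peroxidases Gpx1 and Gpx4, the peroxiredoxins Prdx1, Prdx2, Prdx3 and Prdx6, and thioredoxin (Txn1). They were chosen by name, as the core enzymes that remove superoxide and peroxides, and the rule uses no measured value. The data are RNA-seq of 14 single somatic cell nuclear transfer (SCNT) embryos, collected as two-cell embryos, with 1 library for each. Every embryo came from the B6D2F1 strain and was activated for 6 h with 5 mM SrCl2 and cytochalasin B in medium with deionized BSA, and the study's methods give cumulus cells as donors. The 6 embryos without vitamin C (VC) were 3 non-treated controls and 3 embryos given 50 nM trichostatin A (TSA), a histone deacetylase inhibitor, over the first 8 h from activation. The 8 embryos with 10 µg/ml VC were 1 VC(0-8h) embryo, 2 VC(8-15h) embryos, 2 TSA(0-8h)+VC(0-8h) embryos and 3 TSA(0-8h)+VC(8-15h) embryos. The labels place collection 28 h after nuclear transfer.

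Superoxide dismutases turn superoxide into hydrogen peroxide, and catalase, glutathione peroxidases and peroxiredoxins then reduce peroxides to water or alcohols. Peroxiredoxins draw their electrons mostly from thioredoxin, and glutathione peroxidases from glutathione. VC is itself a scavenger of radicals and also keeps iron- and oxoglutarate-dependent dioxygenases active. At the two-cell stage a mouse embryo holds RNA left from the oocyte beside RNA from its newly active genome, and the level measured for a gene joins both.

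Both glutathione peroxidases are selenoproteins, in which an in-frame UGA codon is read as selenocysteine, the residue at the catalytic centre. The stretches below show that codon in capitals, read from the coding sequence of GENCODE vM1 transcripts, at codon 47 of Gpx1 and codon 73 of Gpx4. They are shown because Gpx1 carries the largest difference with VC among the members that could be tested.
Gpx1: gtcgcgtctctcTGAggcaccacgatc
Gpx4: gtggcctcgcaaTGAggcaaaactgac

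Several antioxidant genes are known to be activated through antioxidant response elements, which are bound by NRF2 and small MAF proteins. The core TGACNNNGC was searched on both strands from 250 bases before to 50 bases after each start site in RefSeq promoters of GRCm38.p6. It was present in 12.4% of 32851 promoters, and 14.0% of 27025 genes held it in at least 1 promoter. Of the 9 genes with a promoter in the table, 2 held the core, Sod1 and Prdx1, and Prdx6 had no entry. The matches, in capitals within 30 bases of the gene's strand, read as the reverse complement of the core. They are shown because these are the only members with a match in this window, and a match describes letters and not a bound site.
Sod1, chr16:90220696-90220725, + strand: gccaaggtggGCGTGGTCAgactcaggcct
Prdx1, chr4:116685456-116685485, + strand: cagggaaagcGCTGAGTCAtcccccgtagg

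Between 3021540 and 13589389 reads were counted per embryo, and 3105 to 6163 genes reached 1 RPKM (reads per kilobase of each transcript relative to the depth of the library). All 8 oocyte markers and the 7 of 8 two-cell markers present in the tables reached 1 RPKM in at least 1 embryo. Of 10 cumulus and granulosa markers, only Has2 reached 1 RPKM, at 1.82 in 1 embryo, and Fshr, Inha and Inhba were listed at 0 in all 14. The summed level of these 10 markers was 0 to 1.90 RPKM with VC and 0 to 0.216 RPKM without. The summed two-cell markers were at 144 to 484 RPKM with VC and at 4.76 to 368 RPKM without, and the summed oocyte markers at 425 to 1419 and 287 to 2319 RPKM, and their part in the differences with VC was not tested. An identifier carried by each library places 5, 6 and 3 embryos in sets 1, 2 and 3, and what it marks is not given in the sources used here. Among them, the rank correlation across genes averaged 0.722 for embryos of the same set and 0.638 for those of different sets. A level in a single-embryo library is relative to its depth and joins both cells of the embryo, so copies per cell were not measured.

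The 10 genes covered the whole range of levels in these embryos. Prdx2, a cytosolic peroxiredoxin that is abundant in red cells and brain, was the only one above 1 RPKM in all 14 embryos, with a mean of 402 RPKM ± 344 (SD, n = 14), a level at the 99.6th percentile of the means of all genes. It was the highest of the 10 in 11 embryos. Prdx1, its close cytosolic relative, came next with 66.8 RPKM ± 80.4 and lay below Prdx2 in 13 of 14 embryos.
Below Prdx1 the order of means was Gpx1 (39.5 RPKM), Txn1 (25.1), Sod1 (20.03), Sod2 (10.2), Cat (9.48), Prdx6 (3.24) and Gpx4 (0.622), with Prdx3 listed at 0 in every embryo. Each of these means other than that of Prdx3 was smaller than the SD of its gene, so that the means alone do not settle this order. Gpx1 exceeded Txn1 and Sod2 exceeded Cat in 11 of 14 embryos each. Prdx1 exceeded Gpx1 in 8 of 14 embryos, and Sod2 exceeded Sod1 in 8 of 14 although its mean was lower. The mean of Txn1 rests on 1 embryo at 345 RPKM, and Sod1 exceeded Txn1 in 11 of 14 embryos. Between 2 and 6 of the 10 genes reached 1 RPKM in one embryo. The share of Prdx2 in their summed RPKM ran from 9.60% in VC(8-15h) replicate 2 to 98.3% in control replicate 2.

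**Figure D1:**
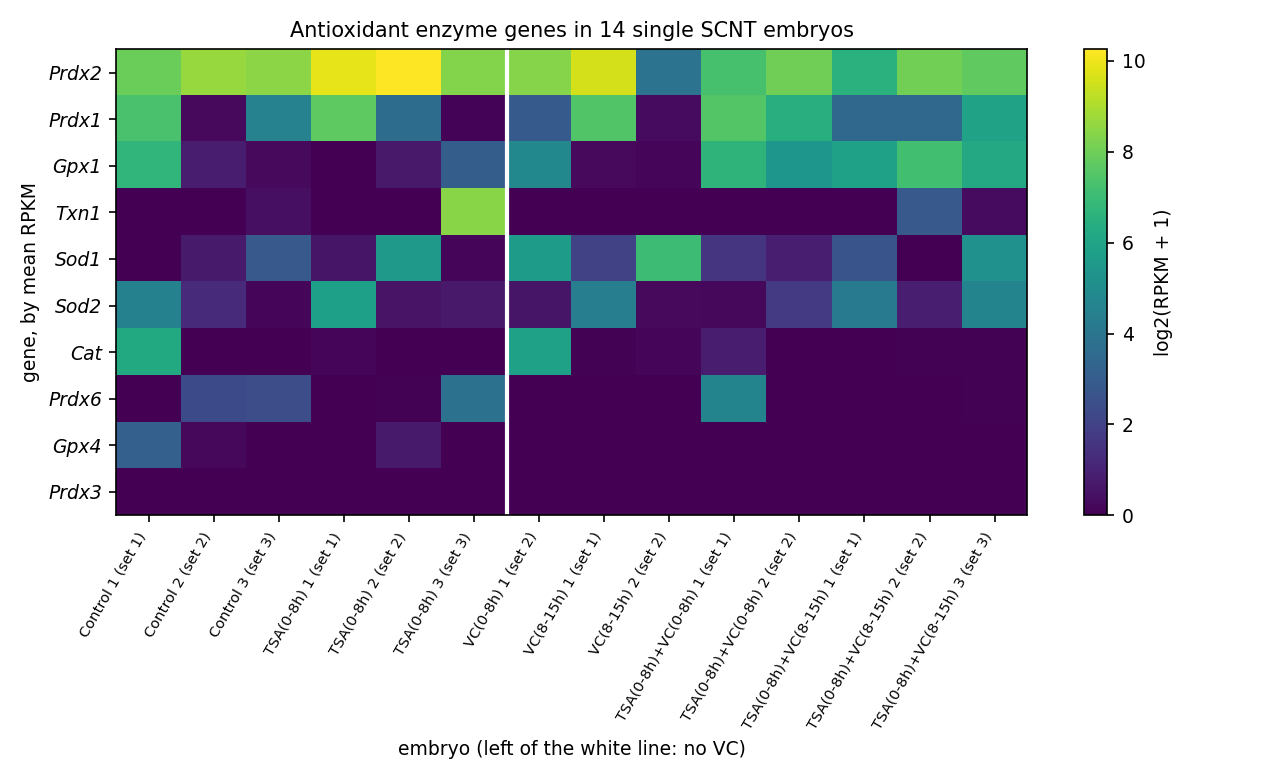
Levels of the 10 genes in the 14 embryos as log2(RPKM + 1), with genes ordered by mean RPKM and the embryos without VC to the left of the white line. Prdx2 is detected in every embryo, Prdx3 in none, and the genes between them are high in some embryos and near 0 in others.

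Sequence shared with other loci was counted for every gene. Each gene's longest annotated transcript or the one nearest in length to the deposited entry was cut into all 50-base windows, the read length, and these were sought in the rest of the mm9 genome (NCBIM37). For Prdx1, Gpx1 and Prdx2 that transcript had 877, 847 and 825 bases, against 1417, 1045 and 942 for the deposited entry. Part of the sequence counted for these genes was therefore not searched. The share found elsewhere was 20.4% for Prdx1 and 8.51% for Prdx2. No window was shared between members. For Gpx4 (chr10:79509911-79519184, + strand), which acts on lipid hydroperoxides in membranes, 628 of 910 windows (69.0%) were also found at other loci. For Gpx1 (chr9:108241607-108242671, + strand, 2 exons) and Cat (chr2:103294006-103325317, − strand, 13 exons) none was.
Prdx3, the mitochondrial peroxiredoxin (chr19:60939954-60950459, − strand, 7 exons), also had 0 of 1429 windows elsewhere, yet no read was listed for it among 109920129 reads in all embryos. A count of 0 allows up to 3 reads, which for its 1478-base transcript is 0.149 RPKM at the highest depth and 0.672 RPKM at the lowest. Gpx4 was listed at 0 in 11 embryos and had 46 reads in all. Its 3 other values were 7.87 RPKM in control replicate 1, 0.16 in control replicate 2 and 0.68 in TSA(0-8h) replicate 2. Genes used by nearly every cell were thus listed at 0, and neither the cause nor the part that shared sequence has in it was tested.

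**Figure D2:**
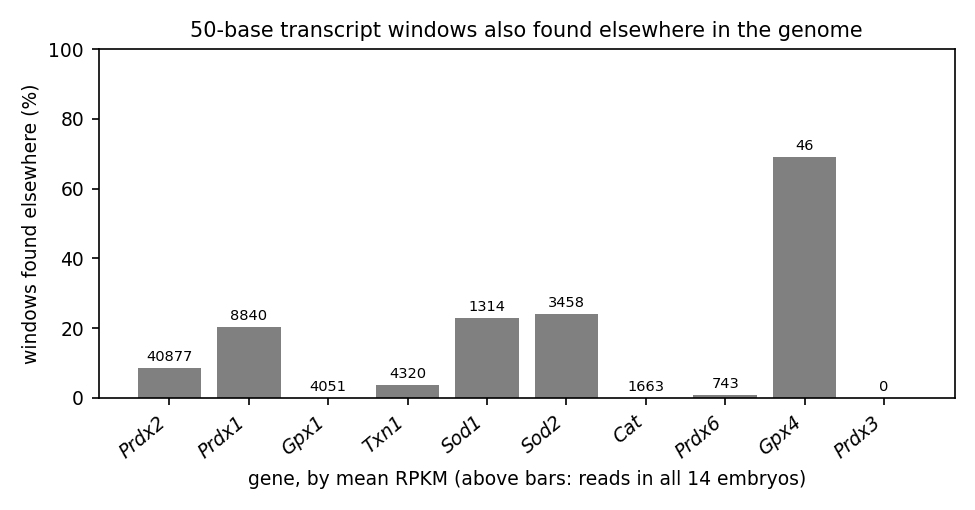
Percentage of 50-base windows of each gene's transcript that also occur elsewhere in the mouse genome (bars, axis from 0 to 100%), with the reads counted for the gene in all 14 embryos printed above. Gpx4 has the highest share at 69.0%, while Prdx3, with 0 reads, has no shared window.

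VC is an antioxidant, so the first comparison set the 8 embryos with VC against the 6 without, with TSA as a term. Of the 10 genes, 5 passed a filter of 1 RPKM in at least 6 of 14 embryos whatever their group, namely Sod1, Sod2, Gpx1, Prdx1 and Prdx2, and none of the 5 passed the threshold. The background was as bare, since 1 of 4988 genes tested (0.02%) passed an adjusted p-value under 0.05 by limma with Benjamini-Hochberg adjustment. That gene was Ccdc82, lower with VC by 0.63 on the log2 scale with adjusted p = 0.0290. At an unadjusted p-value under 0.05, 505 genes (10.1%) passed, and 1 of the 5 members, Prdx2. The median residual SD of the tested genes was 2.21 on the log2(RPKM + 1) scale.
The median log2 difference of all tested genes was 0.60 with VC, and the median of the 5 members was 0.65, with 3 above 0 and 2 below. That shift of all genes depends on scaling, as it was −0.02 after quantile normalization and 0.05 after median-ratio scaling. The number of genes at 1 RPKM or more was 3105 to 6163 with VC and 3298 to 4979 without, and its part in the differences was not tested.

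Gpx1, the cytosolic glutathione peroxidase, was the member with the largest positive difference. Among embryos without VC it was at 106, 0.70 and 0.21 RPKM in controls and at 0, 0.61 and 7.16 RPKM in TSA(0-8h) embryos. Among embryos with VC it was at 27.0 RPKM with VC(0-8h), at 0.19 and 0.15 in VC(8-15h) embryos, at 101 and 40.8 in TSA(0-8h)+VC(0-8h) embryos and at 57.3, 140 and 72.6 in TSA(0-8h)+VC(8-15h) embryos. The median was thus 49.0 RPKM over 8 embryos with VC and 0.655 RPKM over 6 without, and the groups overlapped through 1 control and both VC(8-15h) embryos. No tested member was apart in all 14 embryos, while 0.281% of genes were higher in every embryo with VC and 0.02% lower. The log2 difference of 2.41 (SE 1.39, 95% interval −0.39 to 5.21) did not pass the threshold (limma, adjusted p = 0.574), and it stood 1.81 above the median of all genes. Gpx1 reached 1 RPKM in 6 embryos with VC and in 2 without, and so met the filter largely through embryos with VC. Its place among the tested genes is therefore not independent of the direction of its difference. Within library sets 1, 2 and 3, the mean log2 level was higher with VC by 0.90, 3.65 and 4.55.

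Prdx2 went the other way. It was at 250, 412 and 350 RPKM in controls and at 951, 1222 and 326 RPKM in TSA(0-8h) embryos. With VC it was at 335 RPKM in the VC(0-8h) embryo, at 783 and 13.9 in VC(8-15h) embryos, at 152 and 258 in TSA(0-8h)+VC(0-8h) embryos and at 93.1, 268 and 212 in TSA(0-8h)+VC(8-15h) embryos. Hence the median was 235 RPKM with VC and 381 without, and the groups overlapped.
The log2 difference was −1.57 (SE 0.64, 95% interval −2.85 to −0.29), which did not pass after adjustment (limma, unadjusted p = 0.0171, adjusted p = 0.369). The VC(8-15h) embryo at 13.9 RPKM weighed on this value, as without it the difference was −0.96 (limma, adjusted p = 0.469). That embryo also had the fewest genes at 1 RPKM or more of all 14, at 3105. Within library sets 1, 2 and 3 the mean log2 level with VC minus that without was −1.12, −2.38 and −0.67. Exons of all annotated Prdx2 transcripts together (chr8:87493486-87498733, + strand) share 177 of 3050 bases with Rnaseh2a on the opposite strand. The counted entry of Prdx2 has 942 bases, and the overlap within it was not measured. Rnaseh2a was at no more than 0.818 RPKM in embryos with VC and reached 122 RPKM in 1 TSA(0-8h) embryo. Its part in the differences of Prdx2 was not tested.

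Among the TSA-treated embryos both genes were apart between those with and without VC. Joining both VC windows in this way was not among the planned comparisons and was not fitted, so it is a description only. Gpx1 was at no more than 7.16 RPKM in the 3 TSA(0-8h) embryos and at 40.8 RPKM or more in all 5 embryos that received TSA and VC in either window. Prdx2 was at 326 RPKM or more in the 3 TSA(0-8h) embryos and at 268 RPKM or less in those 5. Of the 4988 genes tested across the 14 embryos, 5.43% were higher in all 5 than in all 3, and 1.16% were lower in all 5.
The TSA(0-8h)+VC(8-15h) embryos alone set against the TSA(0-8h) embryos, 3 of each, necessarily had both genes apart as well, as they belong to the embryos just described, and the other 3 tested members overlapped. Here 12.3% of 4600 genes were higher in every embryo with VC, as Gpx1 was, and 2.35% were lower in every one, as Prdx2 was. The log2 difference of Gpx1 was 5.16 (SE 1.89, 95% interval 1.18 to 9.15) and that of Prdx2 was −2.05 (SE 0.74, 95% interval −3.61 to −0.48). Neither passed the threshold (limma, adjusted p = 0.555 for both), nor did any of the 4600 genes (0%), of which 391 (8.5%) had an unadjusted p-value under 0.05. With limma-voom on recovered reads 3 genes passed, none of them a member. Gpx1 met the filter here with all 3 TSA(0-8h)+VC(8-15h) embryos and 1 TSA(0-8h) embryo at 1 RPKM or more. Its being tested again depended on the group where it is high.
All genes together had a median log2 difference of 0.89 here (0.055 after quantile normalization and −0.089 after median-ratio scaling), so that relative to it the difference of Gpx1 was 4.27 and that of Prdx2 was −2.93. Within library sets 1, 2 and 3, which each hold 1 embryo of both groups, the log2 differences were 5.86, 6.45 and 3.17 for Gpx1 and −3.34, −2.18 and −0.62 for Prdx2, whose common sign follows from the separation of the groups. With the library set as a term 8 genes passed, none of them a member. The number of genes at 1 RPKM or more moved with these results, being 3298 to 3966 in the 3 TSA(0-8h) embryos and 4502 to 6163 in the 5 embryos with TSA and VC, and its part in them was not tested.

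**Figure D3:**
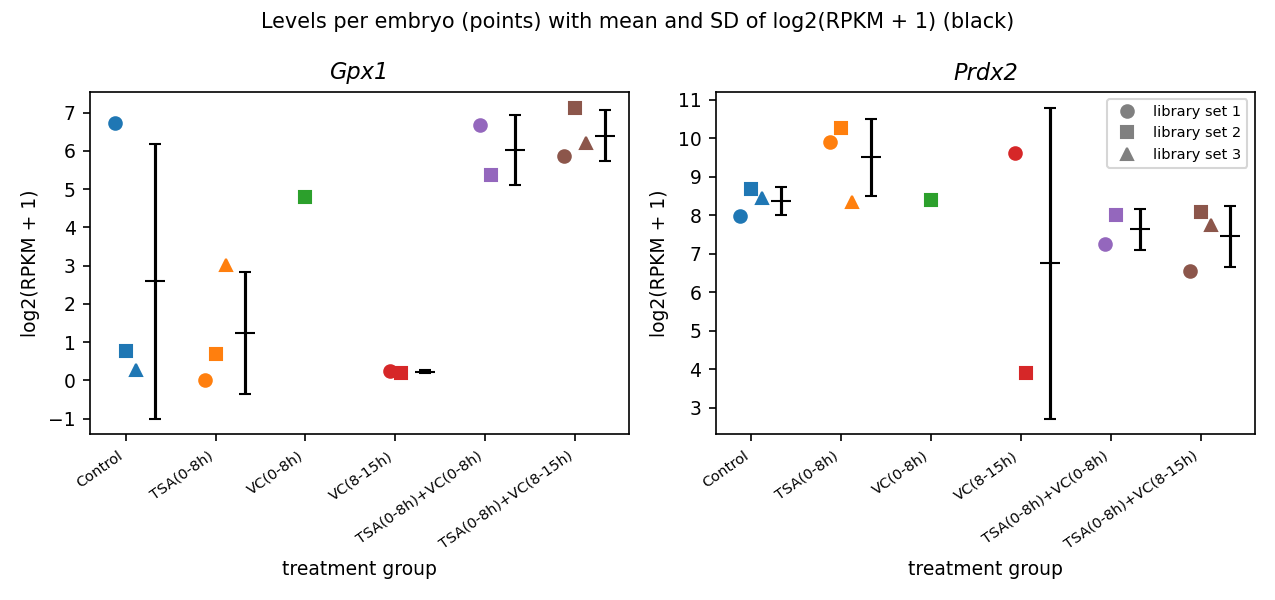
Gpx1 and Prdx2 in each embryo as log2(RPKM + 1) by treatment group, with marker shape for the library set and the group mean and SD in black (none for the single VC(0-8h) embryo). All 5 embryos with TSA and VC lie above the 3 TSA(0-8h) embryos for Gpx1 and below them for Prdx2, while embryos without TSA overlap.

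Without TSA no separation in these directions was seen for Gpx1 or Prdx2. VC(8-15h) against control, with 2 and 3 embryos, tested 5790 genes, of which 0 (0%) passed and 177 (3.06%) had an unadjusted p-value under 0.05; limma-voom called 4. None of the 5 members tested was apart between the groups, while 9.03% of genes were higher in both VC(8-15h) embryos and 7.62% lower. Gpx1 was not tested there, since it reached 1 RPKM in 1 of the 5 embryos only. Its 0.19 and 0.15 RPKM in the VC(8-15h) embryos lay below all controls, the lowest of which was at 0.21 RPKM. These 3 values rest on 3 reads or fewer each, so they do not show a difference. The log2 differences were −1.62 (SE 1.16) for Prdx2, −1.57 (SE 1.35) for Prdx6, 3.30 (SE 2.90) for Sod1, 0.35 (SE 2.62) for Sod2 and −0.15 (SE 2.58) for Prdx1, each with an adjusted p-value of 0.998 by limma.
Whether the difference with VC itself depended on TSA was fitted as an interaction over all 14 embryos. For Gpx1 it was 5.85 on the log2 scale (SE 2.70, 95% interval 0.42 to 11.3), with unadjusted p = 0.0353 and adjusted p = 0.810 by limma. For Prdx2 it was −0.90 (SE 1.28, 95% interval −3.48 to 1.67, adjusted p = 0.951). None of the 4988 genes (0%) passed for the interaction and 287 (5.75%) had an unadjusted p-value under 0.05, with 3 called by limma-voom.

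TSA against no TSA, from the fit with VC as a term, also gave 0 of 4988 genes (0%), with 295 (5.91%) at an unadjusted p-value under 0.05 and 2 called by limma-voom. Among the 5 members tested the log2 differences ran from −1.18 (SE 1.33) for Sod1 to 1.90 (SE 1.39) for Gpx1, and adjusted p-values by limma were 0.950 or more. The 95% interval of Gpx1 reached from −0.90 to 4.70 and that of Prdx2 from −0.65 to 1.91.

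**Figure D4:**
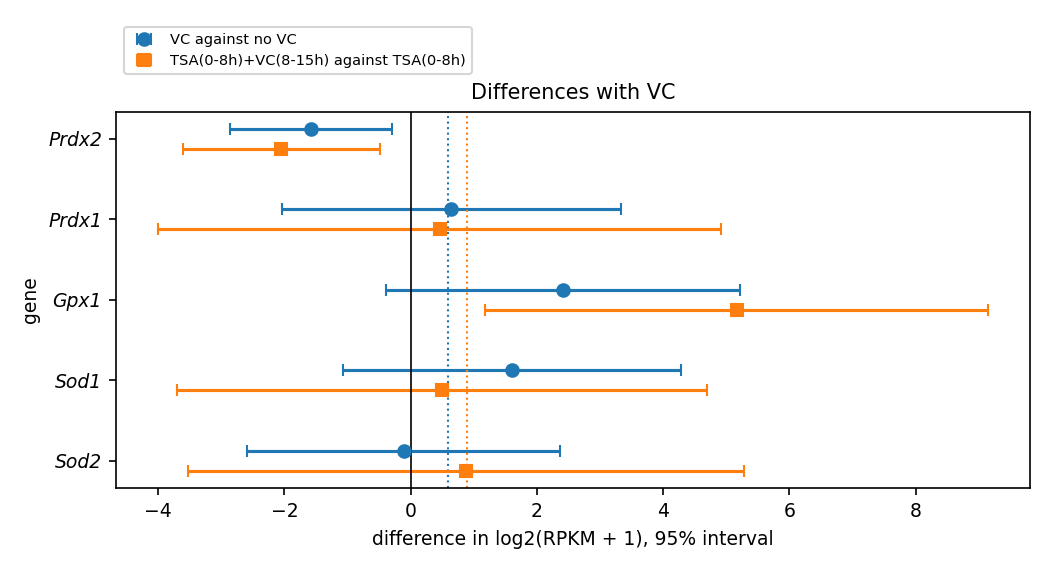
Differences in log2(RPKM + 1) with 95% intervals for the 5 tested genes, for VC against no VC (8 and 6 embryos, circles) and for late VC added to TSA(0-8h) (3 and 3 embryos, squares). Dotted lines mark the medians of all tested genes at 0.60 and 0.89, and no gene passed after adjustment, although the intervals of Prdx2 lie below 0 in both comparisons.

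The superoxide dismutases reached 1 RPKM in part of the embryos, Sod1 in 8 and Sod2 in 7, which were only partly the same ones. Sod1, the cytosolic copper-zinc enzyme (chr16:90220987-90226567, + strand), was at 0, 0.67 and 6.36 RPKM in controls and at 0.51, 46.4 and 0.13 RPKM in TSA(0-8h) embryos. With VC it was at 50.0 RPKM in the VC(0-8h) embryo, at 2.97 and 130 in VC(8-15h) embryos, at 1.89 and 0.82 in TSA(0-8h)+VC(0-8h) embryos and at 5.33, 0 and 35.3 in TSA(0-8h)+VC(8-15h) embryos. High values thus occurred with and without VC, and the log2 difference of 1.60 (SE 1.33, 95% interval −1.07 to 4.28) did not pass (limma, adjusted p = 0.711). Of its 50-base windows, 22.9% were also found at 1 other locus.

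Sod2, the mitochondrial manganese enzyme (chr17:13200705-13210985, + strand), was high in most embryos of set 1 and in 1 embryo elsewhere. In set 1 it was at 21.7 RPKM in the control, 54.5 with TSA(0-8h), 19.7 with VC(8-15h), 17.3 in the TSA(0-8h)+VC(8-15h) embryo and 0.16 in the TSA(0-8h)+VC(0-8h) embryo. In set 2 none of 6 embryos exceeded 2.38 RPKM. In set 3 the TSA(0-8h)+VC(8-15h) embryo was at 23.6 RPKM, and the control and TSA(0-8h) embryos were at 0.10 and 0.62.
In set 1, 4 of 5 embryos were therefore high, with and without VC. Each of the 5 had received a different treatment, so treatment and embryo cannot be told apart there. The log2 difference with VC was −0.11 (SE 1.23, 95% interval −2.59 to 2.36, adjusted p = 0.986 by limma), and within sets 1, 2 and 3 it was −2.22, −0.04 and 4.20. Of its 50-base windows, 24.2% were also found elsewhere, at many loci.

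Prdx1, a peroxiredoxin (chr4:116358149-116373427, + strand), was also high in most embryos of set 1. In set 1 it was at 157 RPKM in the control, 211 with TSA(0-8h), 179 with VC(8-15h), 184 in the TSA(0-8h)+VC(0-8h) embryo and 9.91 in the TSA(0-8h)+VC(8-15h) embryo. In set 2 it ran from 0.21 to 85.6 RPKM with a median of 8.13 over 6 embryos, and in set 3 it was at 22.1 RPKM in the control, 0.06 in the TSA(0-8h) embryo and 59.2 in the TSA(0-8h)+VC(8-15h) embryo. Its mean over the 14 embryos was nearly the same with VC as without, at 66.7 and 66.9 RPKM. The log2 difference with VC was 0.65 (SE 1.34, 95% interval −2.03 to 3.33, adjusted p = 0.913 by limma), and within the sets it was −1.36, 1.32 and 3.60.
The high embryos of set 1 were not the same for both genes, since TSA(0-8h)+VC(0-8h) replicate 1 was low for Sod2 and high for Prdx1, and TSA(0-8h)+VC(8-15h) replicate 1 the reverse.

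**Figure D5:**
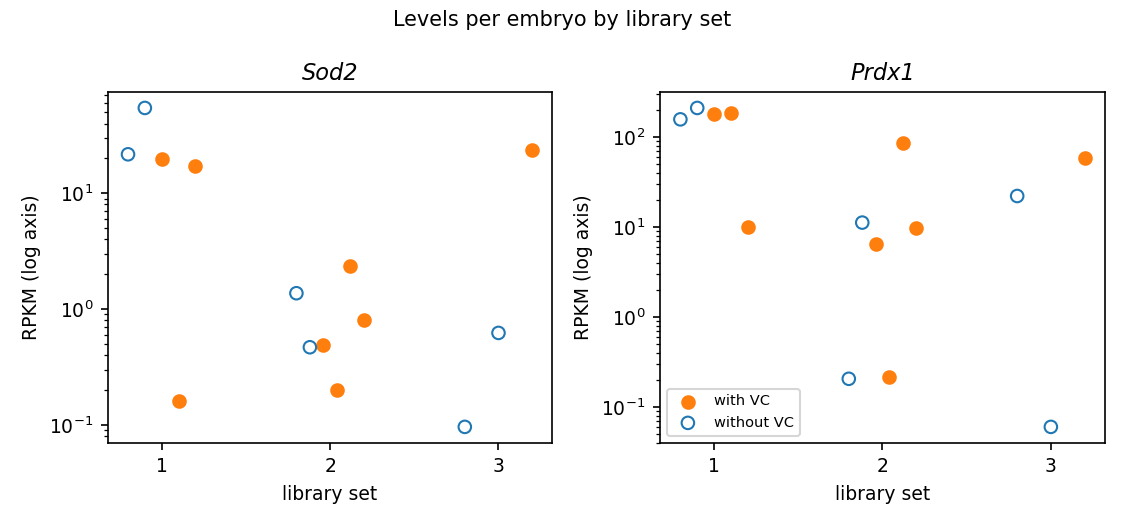
Sod2 and Prdx1 RPKM per embryo (log axis) by library set, with filled points for embryos with VC and open points for those without. In set 1, 4 of 5 embryos are at 17.3 RPKM or more for Sod2 and at 157 RPKM or more for Prdx1, with and without VC.

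Cat, Prdx6, Txn1 and Gpx4 did not pass the filter of the 14-embryo fit and reached 1 RPKM in 1 to 4 embryos each. Catalase, which splits hydrogen peroxide in peroxisomes, was at 74.2 RPKM in control replicate 1 and 57.5 in the VC(0-8h) embryo, and at 0.72 or less in the other 12. Txn1, the cytosolic thioredoxin (chr4:57956245-57969283, − strand), was at 345 RPKM in TSA(0-8h) replicate 3 and 6.24 in TSA(0-8h)+VC(8-15h) replicate 2, and was listed at 0 in 10 embryos. Prdx6, a peroxiredoxin that uses glutathione (chr1:163170243-163181350, − strand), was at 3.87 and 4.32 RPKM in control replicates 2 and 3, at 13.1 in TSA(0-8h) replicate 3 and at 24.0 in TSA(0-8h)+VC(0-8h) replicate 1.
Prdx6 thus reached 1 RPKM in 3 of 6 embryos without VC and in 1 of 8 with VC. Windows found elsewhere made up 0% for Cat, 0.813% for Prdx6 and 3.59% for Txn1, against 69.0% for Gpx4.

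Across the 14 embryos the Spearman correlation was −0.51 between Gpx1 and Prdx2, −0.40 between Sod1 and Sod2 and 0.38 between Sod2 and Prdx1, over embryos that share library sets and treatments. By the same measure, among 1807 genes at 1 RPKM in at least 12 embryos, the genes most like Prdx2 were Kat14 (rho 0.79) and Ube2d2a (0.76). Those most like Prdx1 were Trp53inp1 (0.85) and Ccdc115 (0.81), and those most like Gpx1 were Dido1 (0.89) and Clcn5 (0.80). These values are descriptions over 14 libraries and say nothing of shared control.

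The wider antioxidant system was followed in 56 further genes of the thioredoxin, glutathione and glutaredoxin systems and of the NRF2 pathway. Of these, 23 were tested for VC against no VC, 15 (65.2%) were above 0 and 8 below, against 68.1% above 0 among all 4988 genes. None passed after adjustment, and 2 were higher at an unadjusted p-value under 0.05, as were 443 of all genes. Their median log2 difference was 0.91, against 0.60 for all genes.
Gclc, the catalytic subunit of the enzyme that sets the rate of glutathione synthesis, had the smallest p-value. With VC it ran from 0.268 to 143 RPKM with a median of 41.8, and 7 of 8 embryos reached 1 RPKM. Without VC it ran from 0.215 to 3.92 RPKM with a median of 0.700, and 1 of 6 did. The groups overlapped, and the log2 difference of 3.59 (SE 1.33, 95% interval 0.92 to 6.26) did not pass (limma, unadjusted p = 0.00934, adjusted p = 0.338).
Next came Fth1, the ferritin heavy chain, with a log2 difference of 2.36 (SE 1.14, adjusted p = 0.472), and Txnip, an inhibitor of thioredoxin, with 2.05 (SE 1.17, adjusted p = 0.564), both by limma. The highest mean levels of this list were those of the iron-storing ferritin chains Ftl1 (465 RPKM) and Fth1 (158 RPKM), followed by Txn2, the mitochondrial thioredoxin (77.8 RPKM), G6pdx, which supplies NADPH (60.6 RPKM), and Mafg, a small MAF protein (57.6 RPKM). Ftl1 was at 1 RPKM or more in all 14 embryos, as Prdx2 was, and Txn2 in 6. The log2 differences with VC were 1.01 (SE 0.64) for Ftl1, −0.21 (SE 1.49) for Txn2, −0.99 (SE 1.12) for G6pdx and 1.61 (SE 1.43) for Mafg, with adjusted p-values of 0.614 or more by limma.
For TSA(0-8h)+VC(8-15h) against TSA(0-8h), 21 of the list were tested and none passed, 14 (66.7%) being above 0 and 7 below, against 68.3% above 0 among all 4600 genes, with a median of 1.43 against 0.89 for all genes. Gclc was again on the higher side, with a log2 difference of 4.40 (SE 1.92, adjusted p = 0.555 by limma).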

How the data were processed

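The authors trimmed and filtered single-end 50-base reads, mapped them to mm9 with TopHat (TopHat2 in the submitters' processing notes), counted reads on exons and deposited RPKM values per RefSeq entry. The 14 libraries, 1 per embryo, were made from amplified RNA. Symbols were found for 25250 of 25650 entries and entries of a gene were summed. The members, gene lists and tests were chosen with earlier results of these data known. RPKM values of an entry are multiples of the value of 1 read, which gave back the reads, and 14531 of 14532 entries with reads in at least 2 embryos (99.99%) came out whole within 0.01 read. A floor of 3 reads equals 0.221 to 0.993 RPKM for 1 kb and covers counting error only.

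Differences were tested on log2(RPKM + 1) with limma 3.58.1 (R 4.3.3), lmFit and eBayes with a trend, and Benjamini-Hochberg adjustment at 0.05 over all genes tested. A fold change on this scale understates that of low genes. Filters were 1 RPKM in at least 6 of 14, 3 of 6 or 2 of 5 embryos whatever their group, and the script was tested on simulated data. With normal values at the spread of these genes, a log2 change of 4 was called for 34% of changed genes across 14 embryos. With 3 embryos against 3 it was called for 0%, and a change of 8 for 60%. A gene that did not pass is therefore not shown to be unchanged. Embryos are replicates only as the labels number them, so p-values measure the spread between these embryos. Same-numbered embryos share a library set in all but 1 case, and their deviations correlated weakly, by 0.005 to 0.049. The numbers were not used as pairs in the main fits, and fits with them as a block are among the alternatives. The study reports independent nuclear transfer experiments, and no label ties the numbers to them. Of the 56 further genes, the text names those past the threshold or else the 3 with the smallest p-values, and the 5 with the highest mean. The most similar genes are the 2 with the highest rho for each of the 3 members with the highest mean. Other steps used Python 3.11.15 with pandas 2.3.3, numpy 2.4.6, scipy 1.17.1 and, for figures, matplotlib 3.10.9. Windows and loci are from NCBIM37 with GENCODE vM1, and promoters from RefSeq on GRCm38.p6.

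Alternatives were a pseudocount of 0.1, no filter, a minimum of 5 RPKM, quantile and median-ratio scaling, the replicate block, a library set term, no trend, the highest entry per gene, limma-voom on recovered reads, no TSA term, late VC only and each embryo left out. The study's kind of filter, 1 RPKM in all 3 embryos of either group, was chosen after seeing the data. Protein sequences were not used here.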

Additional observations from a re-analysis of the deposited data

Results flagged for a closer look

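In 6 of 17 tests of a single value far from the rest of its group (embryos with VC or without), a value stood apart by Dixon's 95% limit, where chance gives about 1 in 20 for normal values. That rate does not hold here, as most values in these groups were at or near 0 and a single detected value then stands apart. All of them are values of the genes that reached 1 RPKM in 1 to 4 embryos. Cat stood apart in the VC(0-8h) embryo (57.5 RPKM) and in control replicate 1 (74.2 RPKM), and Gpx4 in control replicate 1 (7.87 RPKM). Txn1 stood apart in TSA(0-8h) replicate 3 (345 RPKM) and in TSA(0-8h)+VC(8-15h) replicate 2 (6.24 RPKM), and Prdx6 in TSA(0-8h)+VC(0-8h) replicate 1 (24.0 RPKM).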

How the results depend on the processing

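No member passed the threshold under any alternative run. Gpx1 stayed higher and Prdx2 lower in every alternative in which each was tested, Gpx1 not being tested with late VC only. With VC, Gpx1 ran from 1.48 to 3.54 (adjusted p 0.321 to 0.851, limma) and Prdx2 from −2.30 to −0.96 (0.263 to 0.770), and for TSA(0-8h)+VC(8-15h) against TSA(0-8h) they ran from 4.16 to 6.70 (0.105 to 0.921) and from −3.37 to −1.49 (0.135 to 0.921). The lowest of these p-values in the last comparison came with the study's kind of filter. That filter depends on the groups and kept Gpx1 only through the TSA(0-8h)+VC(8-15h) embryos, where it is high. No conclusion is therefore drawn from its 0.105. The main filters do not use the groups, but Gpx1 met them largely through embryos with VC as well. Of the other members, Sod1 kept its direction with VC (0.64 to 2.70). Prdx1 was −0.089 after median-ratio scaling and −0.40 to 1.46 with an embryo left out, and Sod2 was 0.34 by limma-voom, 0.64 with late VC only and −0.61 to 0.71 with an embryo left out. In TSA(0-8h)+VC(8-15h) against TSA(0-8h), quantile and median-ratio scaling gave −0.68 and −0.74 for Prdx1, −0.58 and −0.41 for Sod1 and −0.82 and −0.027 for Sod2, and leaving out an embryo gave −1.40 to 2.42 for Prdx1 and, over the 3 of 6 runs in which they passed the filter, −0.47 to 1.81 for Sod1 and −0.023 to 2.06 for Sod2. Counts of genes past the threshold were small throughout, and the cause of their changes was not tested. For VC against no VC (1 gene) the count was 2 with a pseudocount of 0.1 or the highest entry, 4 without a filter, 5 without a trend, 3 by limma-voom and 0 with a minimum of 5 RPKM, quantile or median-ratio scaling, the replicate block, a library set term, no TSA term or late VC only, and 0 to 4 with an embryo left out. For TSA against no TSA (0) it was 1 with a pseudocount of 0.1, 2 with the highest entry or limma-voom, and 0 to 2 with an embryo left out. For TSA(0-8h)+VC(8-15h) against TSA(0-8h) (0) it was 2 after quantile and 4 after median-ratio scaling, 8 with the replicate block or the library set term, 3 with the highest entry or limma-voom and 0 to 4 with an embryo left out. For VC(8-15h) against control (0) it was 2 with a pseudocount of 0.1 or the highest entry, 4 by limma-voom, and 0 to 20 with an embryo left out, 20 being without VC(8-15h) replicate 1, where the lone VC(8-15h) embryo is assumed to vary like the controls. For the interaction (0) it was 1 with the replicate block, 3 by limma-voom and 0 to 2 with an embryo left out. Deviations of same-numbered embryos correlated by 0.005 to 0.049, all positive. With so few embryos per group this does not settle whether the replicate block is a pairing.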
